A study of Mus musculus with 31 samples.

Results

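Mitochondrial ribosomes translate the few messages of the mitochondrial genome, all of which encode subunits of the respiratory chain complexes and of ATP synthase. Their RNA comes from the mitochondrial genome, whereas their proteins are encoded in the nucleus, made on cytosolic ribosomes and imported. The large subunit forms peptide bonds and passes the growing chain to the inner membrane, and the small subunit binds the message and reads its codons. Neurons depend on oxidative phosphorylation, and inherited defects of several of these proteins cause encephalopathy or cardiomyopathy in people.

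The genes described here are the protein-coding genes whose symbol begins with Mrpl or Mrps followed by a number, with pseudogenes left out. There were 78 of them among 54532 genes in the count table, 49 named for the large subunit (Mrpl) and 29 for the small subunit (Mrps). They lie on 17 chromosomes, with 11 of them on chromosome 11 and 0 on X. Of the 78, 46 were listed as having a bacterial counterpart by textbook knowledge and 32 were not. Mrps18c is on that list, whereas its relatives Mrps18a and Mrps18b are not. Reads were found for 77 genes in every library, with between 198 and 3766 read pairs per gene and library, and these 77 passed the filter on low counts in the test. The exception was Mrpl53, listed at 0 in all 31 libraries. In the annotation, 88.0% of the exon bases of Mrpl53 are shared on the same strand with a second gene, Gm42688, and by default the counting program discards read pairs that fall on 2 genes. Its 0 is therefore a property of the count table and is not read as a level. Symbols and structures disagree for some members. Mrps18a and Mrps30 are carried in the large subunit, and the product of Mrps36 is now placed in the 2-oxoglutarate dehydrogenase complex. They are counted here by symbol, among the 29 small subunit genes.

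RNA was taken from the hypothalamus of C57BL/6J mice at 4 months of age. Through pregnancy and lactation the dams were fed either control food or food high in fat and sugar, called obesogenic. All offspring were weaned at postnatal day 21 to chow. At 3 months of age both the control and the obesogenic offspring were switched to obesogenic food for 4 weeks. The groups were 8 daughters and 8 sons of control dams and 7 daughters and 8 sons of obesogenic dams. Each comparison of diet is thus between offspring that had all eaten the obesogenic diet as adults. The labels do not give the litter of each animal, so the p-values measure only the spread between these libraries.

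Libraries held 23118626 to 38547288 counted read pairs. There were 5 libraries in doubt, and results are given with and without them. Control female 5 had a summed level of 12 hypothalamic markers of 143 CPM (read pairs scaled to the size of the library), against 1420 to 1777 in the other control females, with 5 of the 12 at 0, and its olfactory bulb markers summed to 2315 CPM. Control female 5, control male 6 and obesogenic female 3 stood apart by a low median correlation with the other libraries (0.910, 0.914 and 0.936). Control male 6 and obesogenic female 3 had 18734 and 18513 genes detected, against 21311 to 22918 in the other 29. In control female 7 and control male 7 the sex-linked genes went against the label. Libraries are numbered in the order of their records, and the number carries no meaning.

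Promoter sequences were available for 69 of the 78 genes, as windows from 250 bases before to 50 bases after the RefSeq start site (GRCm38.p6). Nuclear respiratory factor 1 (NRF1), the ETS factor GABP and YY1 are known regulators of nuclear genes for mitochondrial proteins. The letters CCGGAAG, the core bound by ETS factors such as GABP, were found on either strand in 26 of the 69 genes (37.7%), against 9.93% of all 27025 genes with a window. The NRF1 letters GCATGCGC were found in 8 genes (11.6%, against 3.05% of all genes), of which 7 belonged to the large subunit and 1, Mrps18b, to the small subunit. The YY1 letters AAGATGG were found in 13 genes (18.8%, against 7.28%). The cyclic AMP response element TGACGTCA was found in 2 genes (2.90%, against 2.03%) and the TATA box letters TATAAA in 5 (7.25%, against 15.7%). Of the 69 genes, 38 held at least 1 of the first 3 motifs and 31 held none. Member windows were richer in G and C (median 58.7%) than all windows (52.7%), and both CCGGAAG and GCATGCGC are rich in G and C. The 4 stretches below run from 120 bases before the start site up to it, and are shown because they carry the motifs in different arrangements. Each is written 5′ to 3′ on the strand of its gene, with the bases that match any of the NRF1, ETS or YY1 letters on either strand in capitals.
Mrpl22: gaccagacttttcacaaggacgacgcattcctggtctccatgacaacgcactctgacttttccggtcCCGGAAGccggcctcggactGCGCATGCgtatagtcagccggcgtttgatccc
Mrpl32: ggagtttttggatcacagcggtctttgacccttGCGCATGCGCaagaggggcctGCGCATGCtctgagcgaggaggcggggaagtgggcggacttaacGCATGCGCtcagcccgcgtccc
Mrpl17: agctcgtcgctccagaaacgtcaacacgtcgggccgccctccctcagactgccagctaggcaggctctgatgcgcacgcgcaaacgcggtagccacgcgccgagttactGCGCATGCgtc
Mrpl52: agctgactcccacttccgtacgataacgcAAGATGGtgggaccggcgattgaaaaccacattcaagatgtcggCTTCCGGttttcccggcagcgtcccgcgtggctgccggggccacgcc
The Mrpl22 stretch (chr11:58171544-58171663, plus strand) holds 1 ETS and 1 NRF1 match. The Mrpl32 stretch (chr13:14613038-14613157, minus strand) holds 4 NRF1 matches, 2 of them overlapping on opposite strands. The Mrpl17 stretch (chr7:105811088-105811207, minus strand) has its NRF1 match 11 bases before the start site. The Mrpl52 stretch (chr14:54426789-54426908, plus strand) holds 1 YY1 and 1 ETS match. A match of letters describes the sequence and does not show that a factor binds there.

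Levels between genes were compared per kilobase of merged exon length (RPKM: CPM divided by kilobases, with library sizes scaled by the trimmed mean of M-values). The median was 17.4 over the 49 large subunit genes, with Mrpl53 counted at its 0, and 12.2 over the small subunit genes. It was 3.59 over all 18743 genes tested, which do not include Mrpl53. Large subunit genes held the first 5 ranks. Mrpl41, a large subunit protein particular to mitochondria, had the highest level, 70.1 ± 18.3 RPKM (mean ± SD, n = 31 libraries). Mrpl27, in the central protuberance, followed with 49.5 ± 7.80. Mrpl12 and Mrpl10 form the flexible stalk that recruits translation factors, and had 42.3 ± 9.49 and 41.4 ± 3.89 RPKM. Mrpl28, a large subunit protein with a bacterial counterpart, had 39.4 ± 9.69. Among small subunit genes Mrps21 (34.2 ± 8.13), Mrps12, the decoding-centre protein (33 ± 7.62), and Mrps23 (31 ± 5.03) were highest, followed by Mrps7 (22.3 ± 4.70) and Mrps15 (20.5 ± 4.87). Among the 5 large and the 5 small subunit genes, the intervals of mean ± SD of neighbours overlapped.

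At the low end of the large subunit, Mrpl33 had 1.58 ± 0.471 RPKM, Mrpl15 had 3.70 ± 0.621 and Mrpl53 was at 0. The lowest small subunit genes were Mrps35 (2.76 ± 0.378), Mrps30 (3.18 ± 0.543) and Mrps10 (3.72 ± 0.561). Each of these low genes other than Mrpl53 has a merged exon length of 6666 to 8631 bases in the annotation, against a median of 2255 bases for the 77 genes. Dividing by merged length understates a gene whose main transcript is short, so these low ranks depend on the annotation. The high ranks and the comparison with all genes rest on the same division. Mrpl41 has 888 merged exon bases and Mrpl27 has 985, and the median over all genes tested is 3750. By CPM alone Mrpl48 was highest, at 76.1, and Mrpl41 had 62.2.

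**Figure D1:**
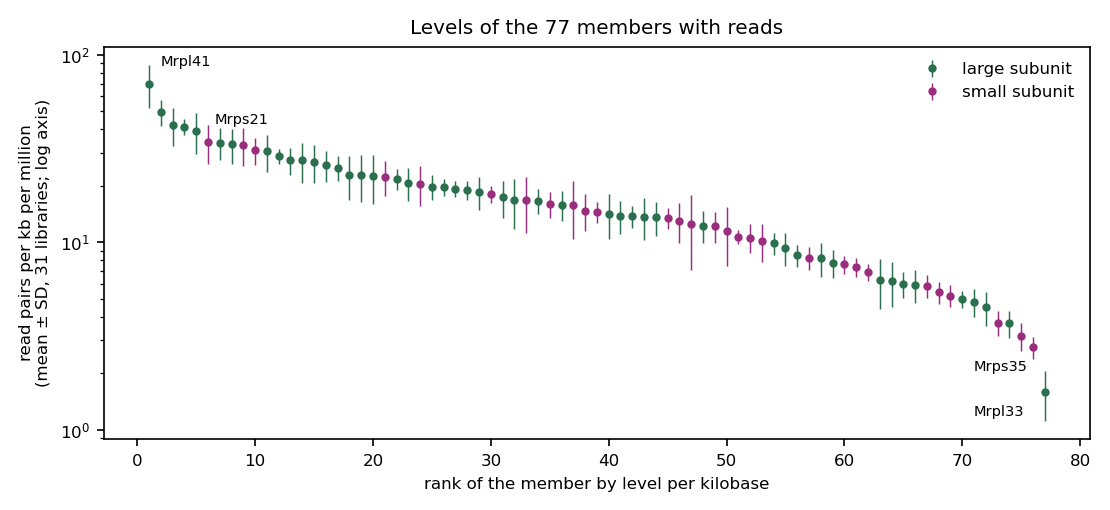
Level of each of the 77 genes with reads (points: mean over 31 libraries; bars: SD; vertical log axis in RPKM), ranked from high to low and coloured by subunit. Large subunit genes take the first 5 ranks, from 70.1 for Mrpl41, and Mrpl33 is last at 1.58.

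The large and small subunit genes kept a nearly fixed proportion in all 4 groups. The summed level of the large subunit genes was 2.0 to 2.19 times that of the small subunit genes in the 31 libraries. As a mean over genes, the large subunit was higher by 0.32 log2 CPM (range 0.27 to 0.40, SD 0.036), and the group means of this difference ran from 0.316 to 0.336. By contrast, the summed CPM of all members ran from 2204 to 4997 over the libraries, or from 2414 to 3109 without the 5 in doubt. Across libraries the mean level of the large subunit genes and that of the small subunit genes had Pearson's r = 0.984 (n = 31), and 0.926 without the 5 libraries (n = 26). The members' mean had r = 0.951 with 82 cytosolic ribosomal protein genes and 0.984 with 37 complex I subunit genes, or 0.884 and 0.933 without the 5. All these values come from the same libraries and share their depth and composition, so they are descriptions. Between single members the median pairwise r was 0.618, falling to 0.320 without the 5 libraries, whereas for the cytosolic ribosomal protein genes it was 0.928 and 0.884.

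In daughters of obesogenic dams most members had slightly lower levels than in daughters of control dams, and no single gene passed the test. The mean log2 CPM over the members was 4.97 to 5.21 in control females (median 5.05) and 4.66 to 5.09 in obesogenic females (median 4.96). The ranges overlapped, and the lowest library was obesogenic female 3. Fold changes were estimated with edgeR's quasi-likelihood test and p-values were adjusted by Benjamini-Hochberg over all genes tested. The fold change was below 0 for 75 of 77 members (52.5% of all genes), with a median of -0.11 on the log2 scale against -0.013 over all genes. This was so in both subunits: 46 of 48 large subunit genes with a median of -0.11, and 29 of 29 small subunit genes with a median of -0.11. Members rose and fell together across libraries (median pairwise r 0.618, or 0.320 without the 5). Counts below 0, here and later, are therefore not counts of independent genes. The replicates are the libraries, and these counts were not tested. Adjusted p was under 0.05 for 0 members (0.0% of all genes), and an unadjusted p under 0.05 was found for 2 lower members (4.75% of all genes were lower at that level). DESeq2 also called 0 members (6 genes in the whole table), with 2 lower at an unadjusted p under 0.05. Limma voom was run with quality weights, which give each library its own weight in the fit. It called 0 members (0 genes in the whole table), with 15 lower and 1 higher at that level. Shares of all genes at that level are given only for edgeR with all libraries and without the 5. Counts from the other fits, here and below, have no such share beside them and are not read as an excess of members. For 71 of the 77 the 95% interval lay within a 1.5-fold difference in either direction, and the lower limits of Mrpl11, Mrpl23, Mrpl52, Mrps16, Mrps18c and Mrps34 went beyond it. The count at an unadjusted p under 0.05 depended on single libraries: between 0 and 15 were lower when each library was left out in turn. It was 0 without obesogenic female 3 and 15, beside 1 higher, without control male 6. All 31 libraries share 1 estimate of the spread in this fit, so a male library can move the count in females. A fit of the 2 female groups alone gave 9 lower at that level. When the 5 libraries were left out, the fold change was below 0 for 72 of 77 (51.1% of all genes), with a median of -0.097, 10 lower members at an unadjusted p under 0.05 (4.53%) and 0 called (0.0%), and all 77 intervals lay within 1.5-fold. Bulk RNA cannot tell fewer cells of a type from less RNA per cell.

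In sons the same direction was seen with all libraries and rested largely on 1 control library. The members' mean log2 CPM was 4.91 to 5.86 in control males (median 5.04) and 4.84 to 5.13 in obesogenic males (median 5.01), and the control maximum was control male 6. The fold change was below 0 for 73 of 77 members (49.9% of all genes), with a median of -0.15 against 0.00038 over all genes. The median was -0.17 over 48 large subunit genes, 46 of them below 0, and -0.11 over 29 small subunit genes, 27 of them below 0. edgeR called 0 members (0.0% of all genes), and 10 were lower at an unadjusted p under 0.05 (2.54% of all genes). DESeq2 called 0 members as well (1 gene in the whole table), with 11 lower at an unadjusted p under 0.05. Limma voom with quality weights for the libraries called 0 members (0 genes in the whole table), with 0 lower and 1 higher at that level. Its median over the members was on the other side of 0, at +0.0062. Without control male 6, 48 of 77 were below 0, with a median of -0.021 and 0 at an unadjusted p under 0.05. Over all single libraries left out, the count at that level ran from 0 to 19, the last without control male 7. A fit of the 2 male groups alone gave 3 lower. Without all 5 libraries, 47 of 77 were below 0 (48% of all genes), with a median of -0.034, 2 lower members at an unadjusted p under 0.05 (1.48%) and 0 called (0.0%).

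**Figure D2:**
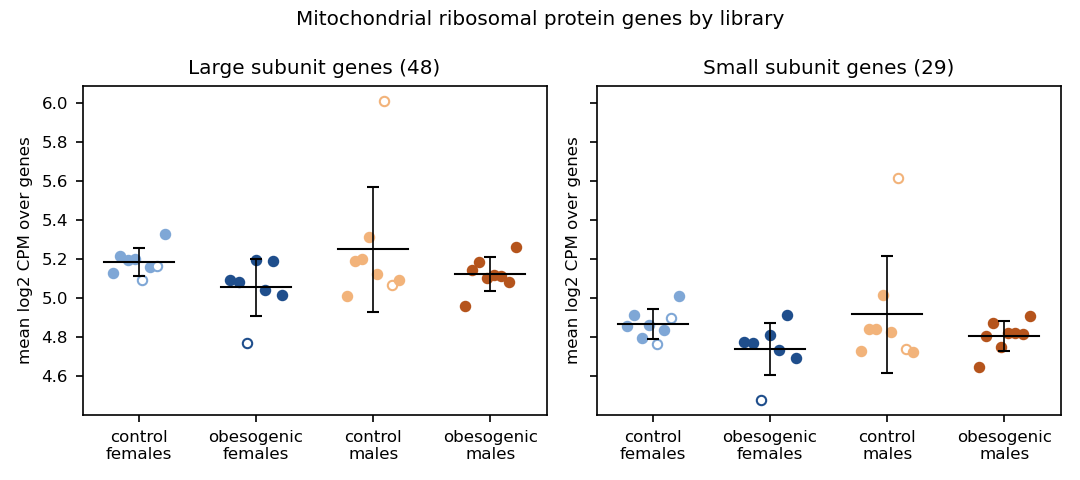
Mean log2 CPM over the 48 large subunit genes (left) and the 29 small subunit genes (right) in each library, by maternal diet and sex; open points are the 5 libraries in doubt, lines are means and bars are SD. Control male 6 lies at 6.01 and 5.62, above every other library, and obesogenic female 3 at 4.77 and 4.48, below every other library.

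Control male 6 was the highest of its group for 72 of the 77 members and the highest of all 31 libraries for 70. Its median difference from the rest of its group was +0.88 on the log2 scale over the members, against -0.068 over all genes. The differences ran from -0.15 for Mrps5 to +1.72 for Mrps18c. With the trend over gene length removed, the median was +0.76. In this library the mean of the cytosolic ribosomal protein genes was 8.67 log2 CPM (7.22 to 7.77 in the other control males not in doubt), and the hypothalamic markers summed to 3813 CPM (1213 to 2163 in those males). Its oligodendrocyte markers summed to 10845 CPM, against 5372 to 7572 in those males, and its haemoglobin genes and Alas2 to 614 CPM, against at most 252.8. Obesogenic female 3 was the lowest of its group for 45 members and of all libraries for 35, with a median difference of -0.29, and its cytosolic ribosomal protein genes had a mean of 6.65 log2 CPM (7.06 to 7.52 in the rest of its group). The part of these measures in the members' levels was not tested.

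**Figure D3:**
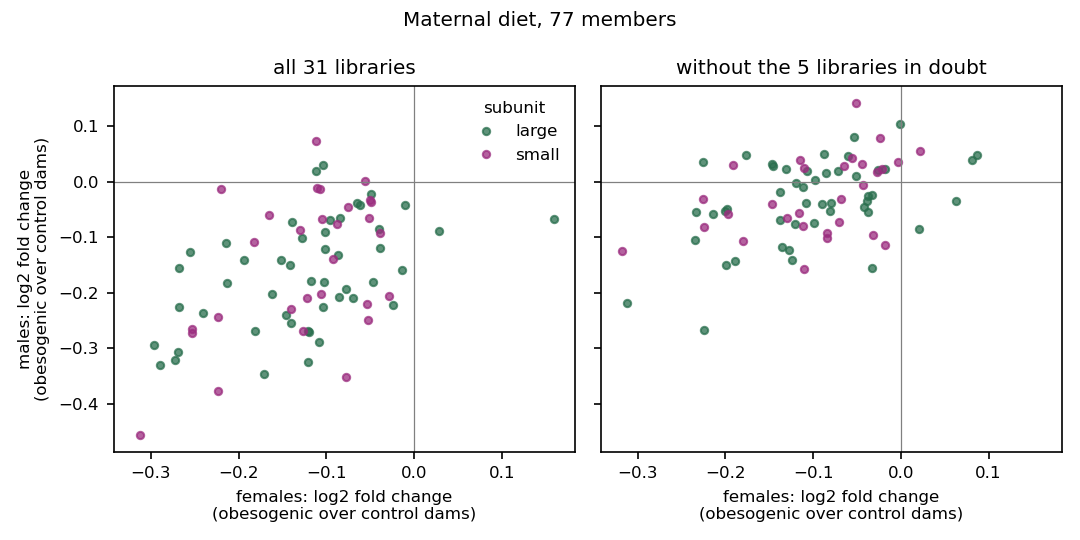
Log2 fold change of each of the 77 members in females (horizontal) and in males (vertical), obesogenic over control dams, with all 31 libraries (left) and without the 5 in doubt (right), coloured by subunit. With all libraries 71 genes lie below 0 in both sexes, and without the 5 libraries 45 do.

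Over both sexes together the fold change was below 0 for 76 of 77 members (52.5% of all genes), with a median of -0.14, and 22 were lower at an unadjusted p under 0.05 (6.37% of all genes). edgeR called 0 members (0.0% of all genes). DESeq2 and limma voom called 0 members too (5 and 0 genes in the whole table), with 22 and 10 lower at an unadjusted p under 0.05. Without control male 6 the median was -0.062, with 10 lower and 1 higher at an unadjusted p under 0.05, and without obesogenic female 3 there were 14 lower. Over all single libraries left out, the lower count ran from 10 to 31, the last without control male 1. With the 5 libraries left out, 66 of 77 were below 0 (50.7% of all genes), with a median of -0.061 and 13 lower at an unadjusted p under 0.05 (4.18%). The 6 members whose fold change was not below 0 in both sexes with all libraries were Mrpl3, Mrpl22, Mrpl35, Mrpl45, Mrps2 and Mrps5. Fold changes in females and in males come from separate libraries, and 30.9% of all genes were below 0 in both.

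Mrpl54, a large subunit protein with no bacterial counterpart (ENSMUSG00000034932, chr10:81264713-81266934, minus strand), had the smallest p over both sexes. Its levels were 17.3, 27.1 and 32 CPM (lowest, median, highest) in control females and 17, 23 and 24.6 CPM in obesogenic females. In control males they were 21.8, 26 and 45.8 CPM, and in obesogenic males 18.4, 22.8 and 29.5 CPM. The groups overlapped, and the highest male value was that of control male 6 while the lowest control female value was that of control female 5. The log2 fold change was -0.27 ± 0.14 (SE) in females, -0.31 ± 0.13 in males and -0.29 ± 0.10 over both, with an adjusted p of 0.464 over both by edgeR. Leaving out the 5 libraries gave -0.31 ± 0.10 in females, -0.22 ± 0.10 in males and -0.27 ± 0.07 over both, with an unadjusted p of 0.000718 and an adjusted p of 0.598. Without them the 6 control females (25.2 to 32 CPM) lay above the 6 obesogenic females (19.6 to 24.6 CPM) without overlap.

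Mrpl17, which lies near the end of the tunnel through which the new chain leaves (ENSMUSG00000030879, chr7:105803206-105811099, minus strand), was the other member whose female groups did not overlap without the 5 libraries. Both were lower in obesogenic females, as 2 of 77 members. Over all 18743 genes, 80 (0.427%) were apart in either direction in that comparison, 38 of them lower in obesogenic females. With all libraries no member's female groups were apart (0.117% of all genes). Mrpl17 had 31.9, 45.4 and 50.7 CPM in control females and 39.2, 42.1 and 42.8 CPM in obesogenic females. The lowest control value was that of control female 5, and without the 5 libraries the control range was 43.1 to 50.7 CPM. The log2 fold change was -0.10 ± 0.12 with all libraries and -0.18 ± 0.06 without the 5 (edgeR adjusted p = 0.543). In males, with 40.2, 42.5 and 88.2 CPM in controls and 41.9, 45.8 and 48.3 CPM in the obesogenic group, it was -0.12 ± 0.11, and 0.05 ± 0.06 without the 5. No member's male groups were apart with all libraries (0.016% of all genes) or without the 5 (0.0534%).

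**Figure D4:**
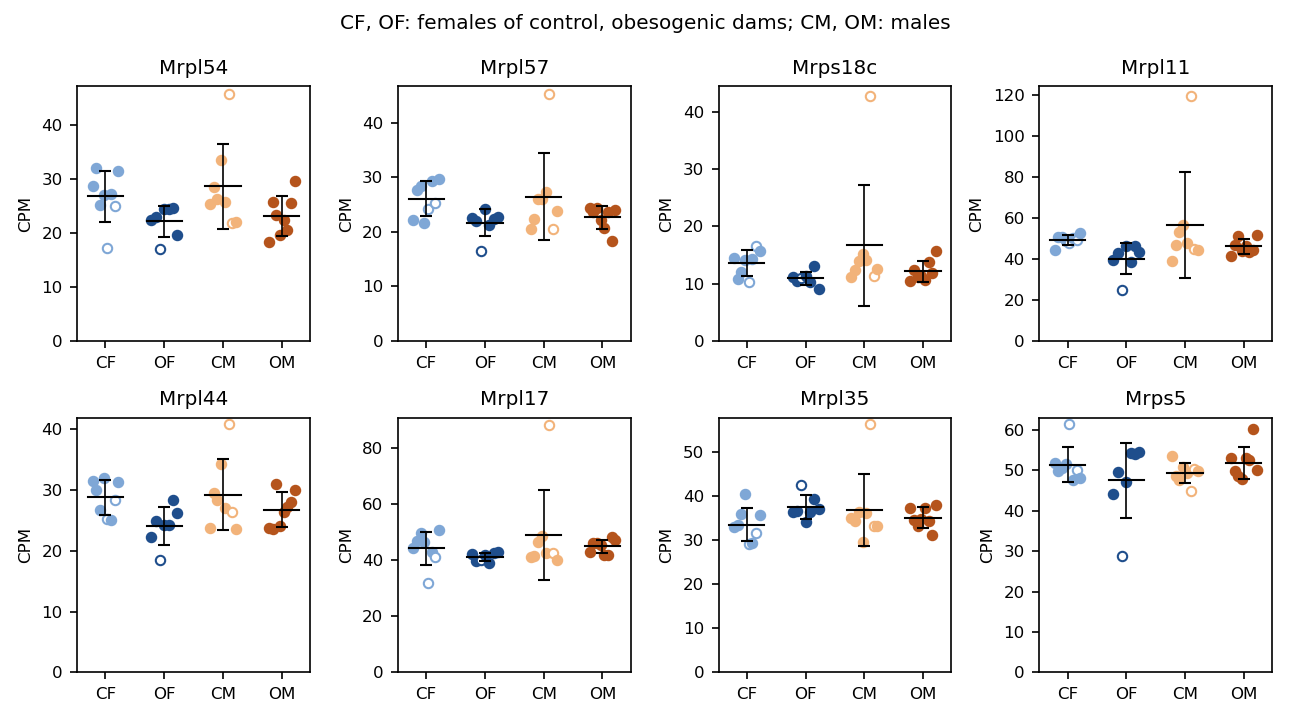
CPM of 8 members in each library, with means (lines), SD (bars) and the 5 libraries in doubt as open points; the vertical axes start at 0. For Mrpl54, Mrpl57, Mrps18c, Mrpl11, Mrpl44, Mrpl17 and Mrpl35 control male 6 is the highest control male, which is not so for Mrps5.

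Among the other large subunit genes, Mrpl44, an RNase III-like protein near the tunnel exit whose human gene is mutated in a cardiomyopathy, had the smallest p in females. Its levels were 25.2, 29.2 and 32.1 CPM in control females and 18.4, 24.3 and 28.4 CPM in obesogenic females. These ranges overlapped, with obesogenic female 3 lowest. The log2 fold change was -0.25 ± 0.11 in females (unadjusted p = 0.0211, edgeR adjusted p = 0.558) and -0.13 ± 0.10 in males, or -0.23 ± 0.09 and -0.05 ± 0.09 without the 5 libraries. Mrpl57, a large subunit protein particular to mitochondria, had 21.5, 26.5 and 29.8 CPM in control females and 16.4, 22.4 and 24.3 CPM in obesogenic females. Its groups overlapped, and its fold change was -0.27 ± 0.13 in females and -0.22 ± 0.12 in males, or -0.23 ± 0.09 and -0.10 ± 0.09 without the 5 libraries.

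Of the stalk genes, Mrpl11 stood at 44.4, 50 and 52.8 CPM in control females and 24.7, 42.9 and 46.5 CPM in obesogenic females, again with obesogenic female 3 lowest. Its fold change was -0.30 ± 0.16 in females and -0.29 ± 0.15 in males, and -0.21 ± 0.08 and -0.06 ± 0.07 without the 5 libraries. Mrpl12, which also binds the mitochondrial RNA polymerase, had -0.15 ± 0.14 in females and -0.24 ± 0.13 in males, or -0.10 ± 0.08 and -0.07 ± 0.07 without the 5. Mrpl10 had -0.05 ± 0.08 and -0.02 ± 0.07, or -0.085 ± 0.065 and 0.02 ± 0.06. All 3 stalk genes were thus below 0 in both sexes with all libraries.

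Genes around the tunnel exit were below 0 in 6 of 7 cases in each sex, with medians of -0.11 in females and -0.12 in males. The counts without the 5 libraries were 6 of 7 in females (median -0.15) and 3 of 7 in males (median 0.03). Mrpl45, which anchors the ribosome to the inner membrane, was the exception in females at 0.03 ± 0.12, or 0.09 ± 0.08 without the 5. Mrpl22 was the exception in males at 0.02 ± 0.09, with 15.6, 18.9 and 20.4 CPM in controls and 15.8, 18.7 and 22.7 CPM in the obesogenic group. Mrpl23, another protein of the exit, had -0.27 ± 0.16 in females and -0.32 ± 0.15 in males, or -0.20 ± 0.11 and -0.15 ± 0.10 without the 5. Mrpl24 (-0.10 ± 0.10 and -0.23 ± 0.10) had its smaller p in males, with 40.8, 45.8 and 72.4 CPM in controls and 33.1, 42.8 and 46.2 CPM in the obesogenic group, and its male value was -0.12 ± 0.07 without the 5.

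The 6 central protuberance genes were all below 0 in both sexes, with medians of -0.14 in females and -0.15 in males. After leaving out the 5 libraries, 6 of 6 were below 0 in females (median -0.085) and 3 of 6 in males (median 0.0024). Mrpl18, the counterpart of a bacterial protein of the central protuberance, had 36.5, 38.5 and 48.3 CPM in control females and 27.8, 34.9 and 38.6 CPM in obesogenic females. Its ranges overlapped, and its fold change was -0.27 ± 0.14 in females and -0.15 ± 0.13 in males, or -0.23 ± 0.09 and 0.03 ± 0.09 without the 5. Mrpl55, a large subunit protein, had the smallest p in males, with 24.8, 26.6 and 51.1 CPM in controls and 22.8, 24.7 and 28.2 CPM in the obesogenic group. Its fold change in males was -0.27 ± 0.11 (edgeR adjusted p = 0.94) and -0.14 ± 0.08 without the 5 libraries. Mrpl58, a peptidyl-tRNA hydrolase that frees stalled chains, had -0.08 ± 0.12 in females and -0.19 ± 0.11 in males, or -0.14 ± 0.08 and -0.07 ± 0.08 without the 5.

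Mrpl35, a large subunit protein, was the member with the highest fold change in females, 0.16 ± 0.10 (unadjusted p = 0.109). Its levels were 29, 33.1 and 40.3 CPM in control females and 34.1, 36.6 and 42.4 CPM in obesogenic females, and these overlapped. Its highest obesogenic value was that of obesogenic female 3, and without the 5 libraries the fold change was 0.08 ± 0.07. In males it was -0.07 ± 0.09, or 0.04 ± 0.07 without the 5. Mrpl3, a protein of the large subunit core, had -0.10 ± 0.09 in females and 0.03 ± 0.09 in males, or -0.05 ± 0.06 and 0.08 ± 0.06 without the 5, and its highest value, 102 CPM, came from control female 5.

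The symbol Mrps18 covers 3 related genes with a common bacterial relative. Mrps18b and Mrps18c encode small subunit proteins and Mrps18a a large subunit protein. Mrps18c (ENSMUSG00000016833, chr5:100798627-100804471, plus strand) had 10.3, 14.2 and 16.5 CPM in control females and 9.10, 11 and 13.1 CPM in obesogenic females. In males it had 11.2, 13.3 and 42.7 CPM in controls and 10.4, 11.6 and 15.7 CPM in the obesogenic group. The ranges overlapped in both sexes, and the control male maximum was that of control male 6. The fold change was -0.31 ± 0.20 in females and -0.46 ± 0.19 in males, and without the 5 libraries -0.32 ± 0.11 and -0.13 ± 0.11. In the annotation 23.2% of its exon bases are shared with Gm43511 on the same strand, so its count leaves out read pairs from that stretch. Mrps18b had -0.22 ± 0.11 in females and -0.01 ± 0.11 in males, or -0.19 ± 0.11 and 0.03 ± 0.11 without the 5. Mrps18a had -0.13 ± 0.12 and -0.27 ± 0.11, or -0.11 ± 0.09 and -0.16 ± 0.08.

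Mrps5, near the entry of the message, had the highest fold change in males, 0.07 ± 0.09. In females its fold change was -0.11 ± 0.09 with all libraries and turned to 0.02 ± 0.07 without the 5. Its levels were 44.9, 49.6 and 53.6 CPM in control males and 47.8, 51.3 and 60.3 CPM in obesogenic males, with overlap, and control male 6 had the lowest control value. Mrps2, another small subunit protein, had 25.7, 30.6 and 33.7 CPM in control males and 26.9, 30.8 and 36.1 CPM in obesogenic males, a fold change of 0.00 ± 0.07. Mrps22, mutated in people with mitochondrial disease, had 19.5, 22.2 and 26.7 CPM in control females and 17.5, 20.3 and 21.8 CPM in obesogenic females. Its fold change in females was -0.18 ± 0.10, and -0.23 ± 0.09 without the 5 libraries. Mrps30 (-0.11 ± 0.11 in females and -0.20 ± 0.11 in males) and Mrps36 (-0.09 ± 0.12 and -0.08 ± 0.11), whose product is now placed in the 2-oxoglutarate dehydrogenase complex, did not pass the test. Without the 5 libraries Mrps30 had -0.08 ± 0.09 and -0.09 ± 0.09, and Mrps36 had -0.0037 ± 0.10 and 0.04 ± 0.09. Of the 13 members on a list of human disease genes, 13 were below 0 in females (median -0.10) and 11 in males (median -0.13), or 13 (median -0.11) and 8 (median -0.040) without the 5.

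The difference between the sexes in the diet effect had no called member in edgeR (0.0% of all genes), and its direction over the list depended on control male 6. The male minus female effect was below 0 for 45 of 77 members (51.0% of all genes), with a median of -0.031 and 0 members at an unadjusted p under 0.05 (3.62% of all genes). The median was -0.074 without obesogenic female 3 and +0.090 without control male 6. With the 5 libraries removed, 15 of 77 were below 0 (48.2% of all genes), with a median of +0.064, and 2 were higher at an unadjusted p under 0.05 (1.96%). These 2 were Mrpl17, at 0.22 ± 0.09, and Mrpl18, at 0.26 ± 0.13. DESeq2 called 0 members (6 genes in the whole table), with 0 at an unadjusted p under 0.05. Limma voom called 0 members (0 genes in the whole table), with 9 higher at that level. For this difference the 95% interval lay within 1.5-fold for 69 of 77 members, and for all 77 without the 5 libraries.

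Between females and males of control dams, the female minus male fold change was below 0 for 68 of 77 members (51.1% of all genes), with a median of -0.091 and 0 called by edgeR (0.0%). Mrpl55 was the 1 member at an unadjusted p under 0.05 (1.07% of all genes were lower at that level), with -0.22 ± 0.11, or -0.09 ± 0.08 without the 5. The direction turned without control male 6, when 16 of 77 were below 0 and the median was +0.056, and without the 5 libraries, when 14 of 77 were below 0 (49.3% of all genes), the median was +0.050 and 0 were called (0.0588%), with 0 at an unadjusted p under 0.05 (2.42%). Between females and males of obesogenic dams, 64 of 77 were below 0 (51.3% of all genes), with a median of -0.062 and 0 called (0.0%). With all libraries edgeR called no gene of the whole table in either comparison of the sexes. This includes Xist, at 205 to 716 CPM in obesogenic females and at most 0.056 in obesogenic males. Xist went against the label in control female 7 (0.31 CPM) and control male 7 (575 CPM). All 31 libraries share 1 estimate of the spread. The missing call for Xist carries little weight, and its bearing on the members' 0 calls was not tested. A fit of the 2 obesogenic groups alone called 12 genes of the whole table and 0 members. Mrps10, a small subunit protein, was the 1 member at an unadjusted p under 0.05 (1.59%), with -0.22 ± 0.10. Either leaving out obesogenic female 3 or leaving out the 5 libraries gave 47 of 77 below 0 (51.6% of all genes for the latter) and a median of -0.027. In the latter case 0 were called (0.0749%), with 0 at an unadjusted p under 0.05 (5.48%). DESeq2 called 0 members in control and in obesogenic offspring (1 and 12 genes in the whole table), with 1 lower at an unadjusted p under 0.05 in each. Limma voom called 0 members (0 and 3 genes in the whole table), with 3 higher in control and 4 lower in obesogenic offspring at that level. No member's female and male groups were apart with all libraries (0.0107% and 0.101% of all genes) or without the 5 (0.187% and 0.16%).

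**Figure D5:**
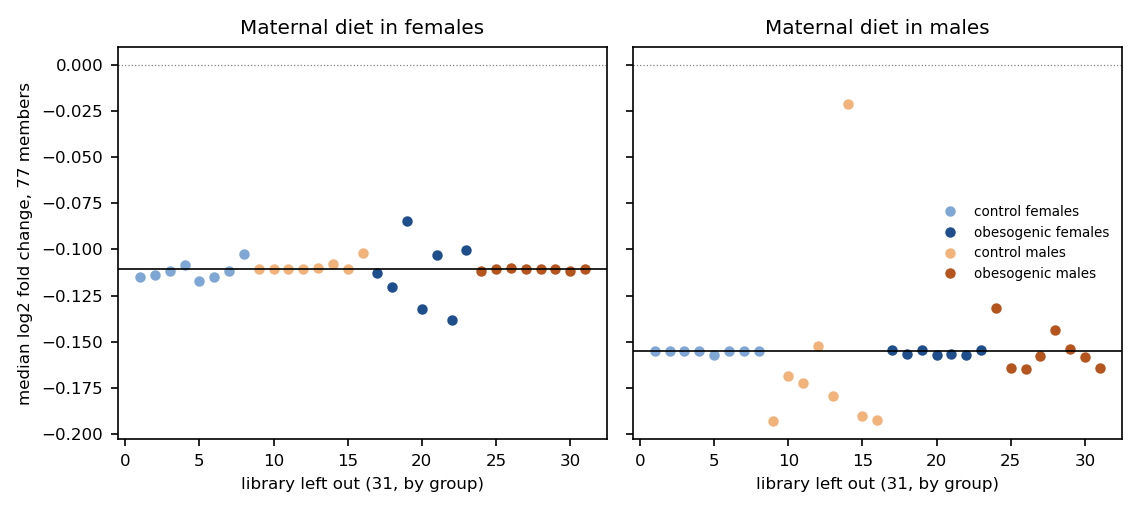
Median log2 fold change of the 77 members, obesogenic over control dams, in females (left) and males (right) when each of the 31 libraries is left out in turn; black lines mark the value with all libraries and dotted lines mark 0. In females the medians lie between -0.138 and -0.084, and in males between -0.193 and -0.021, the last without control male 6.

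Other parts of mitochondrial translation were followed with lists that do not rest on the Mrp symbols. No gene of these lists was called by edgeR in the diet comparisons. Of 5 mitoribosome genes with other symbols, 4 were below 0 in each sex, with medians of -0.098 in females and -0.25 in males, the latter -0.046 without the 5 libraries. Chchd1, a small subunit protein, had -0.30 ± 0.18 in females and -0.38 ± 0.17 in males, and -0.31 ± 0.11 and -0.096 ± 0.10 without the 5 libraries. Gadd45gip1, a large subunit protein, had -0.18 ± 0.13 and -0.27 ± 0.12, or -0.21 ± 0.09 and -0.16 ± 0.08 without the 5. Of 22 ribosome assembly genes 12 were below 0 in females (median -0.027) and 17 in males (median -0.051), or 11 (median -0.0030) and 8 (median 0.019) without the 5. Mpv17l2, an assembly factor of the inner membrane, had -0.37 ± 0.18 in females and -0.47 ± 0.17 in males (edgeR adjusted p = 0.464 over both sexes), and -0.41 ± 0.12 and -0.23 ± 0.11 without the 5 libraries. Rpusd4, which modifies the 16S RNA, was on the other side at 0.38 ± 0.15 in females (0.22 ± 0.15 without the 5), with an edgeR adjusted p of 0.557.

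Of 15 translation factors and messenger RNA-binding proteins 8 were below 0 in each sex. Mtif2, the initiation factor, was higher in obesogenic females, with 29.3 ± 2.68 CPM (SD, n = 7) against 24.9 ± 2.46 CPM (n = 8). Its log2 fold change was 0.23 ± 0.08 with an edgeR adjusted p of 0.524, or 0.22 ± 0.08 without the 5 libraries. Of 17 mitochondrial aminoacyl-tRNA synthetases 12 were above 0 in females, with a median of 0.056, and 8 in males, with a median of -0.0026. Ears2, which charges transfer RNA with glutamate, had 0.32 ± 0.12 in females (edgeR adjusted p = 0.549), or 0.30 ± 0.13 without the 5 libraries. The 2 mitochondrial ribosomal RNA genes had medians of -0.038 in females, where it was +0.021 without obesogenic female 3 and -0.072 without the 5 libraries, and -0.20 in males, where it was -0.036 without the 5 libraries. The libraries' selection of RNA was not given in the sources used here. Of 11 regulators of mitochondrial transcription and biogenesis 6 were below 0 in females and 4 in males. Tfb2m, a mitochondrial transcription factor, had -0.24 ± 0.10 in females (edgeR adjusted p = 0.579), or -0.16 ± 0.10 without the 5 libraries. Polrmt, the mitochondrial RNA polymerase, had 0.20 ± 0.10 in females (edgeR adjusted p = 0.608), or 0.19 ± 0.09 without the 5. The cytosolic ribosomal protein genes were below 0 for 80 of 82 in females and 81 of 82 in males, with medians of -0.24 and -0.31, and -0.21 and -0.10 without the 5 libraries. The nuclear genes for complex I, the first enzyme of the respiratory chain, were below 0 for 35 of 37 and 36 of 37, with medians of -0.20 and -0.28, and -0.15 and -0.075 without the 5 libraries.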

How the data were processed

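The deposited file holds counts of read pairs per gene, made by the authors with featureCounts 1.6.2 on the Ensembl GRCm38 release 94 annotation, counting by strand, with both ends mapped and a minimum mapping quality of 10, per the file headers. TopHat2 2.0.13 and mm10 are named in the submitters' processing notes. Libraries were grouped by the labelled maternal diet and sex. In R 4.3.3, edgeR 4.0.16 was fitted to all 31 libraries with 1 coefficient per group (filter by expression, trimmed mean of M-values scaling, quasi-likelihood test), and p-values were adjusted over all 18743 genes tested. Log2 CPM used a prior count of 2. On simulated counts for daughters, 28.6% of 1.5-fold and 60.6% of 2-fold changes were recovered over 18743 genes, and 7.37% of the calls were false. Smaller changes, such as the members' medians, were not simulated. Intervals cover the spread between libraries.

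Alternatives were DESeq2 1.42.0, limma 3.58.1 voom with quality weights, 2 surrogate variables (sva 3.50.0), and other filters and scaling. Further ones were a fit of only the 2 groups compared, removal of a gene length trend, and leaving out each library. The quality weights give each library its own weight, so limma voom differs from edgeR also in how it treats outlying libraries. Leaving out the 5 libraries in doubt was chosen after seeing the data. Members and lists were chosen with earlier results of these data known. Named genes are the 5 smallest p in each direction per contrast, the 5 highest and 3 lowest levels in each subunit, and listed genes by role, of which the text gives those its results turn on; of the other pathway lists, from the 2 smallest p per contrast, of which 1 gene is not reported here. No 2 libraries agreed within sampling noise (smallest chi-square per degree of freedom 7.95).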

Additional observations from a re-analysis of the deposited data

Results flagged for a closer look

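Within each group the highest and lowest library was checked for a gap from the others by Dixon's criterion at the 95% level, for 4 summary measures and 21 members, which gave 30 values in 100 checks, where chance gives about 1 in 20. Control male 6 accounts for 17 of them, all high. Its mean log2 CPM was 6.01 over the large and 5.62 over the small subunit genes, and its summed CPM was 4997. Its CPM was 120 for Mrpl11, 88.2 for Mrpl17, 82.2 for Mrpl18, 65.7 for Mrpl23 and 72.4 for Mrpl24. It was 56.3 for Mrpl35, 136 for Mrpl41, 74.8 for Mrpl45, 51.1 for Mrpl55 and 45.3 for Mrpl57. Among small subunit symbols it was 82.7 for Mrps18a, 42.7 for Mrps18c, 51.8 for Mrps21 and 32.8 for Mrps22.

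Obesogenic female 3 was low in 5 checks: mean log2 CPM of the large subunit 4.77, and CPM of 24.7 for Mrpl11, 16.4 for Mrpl57, 12.1 for Mrps21 and 28.7 for Mrps5. Control female 5, whose hypothalamic markers were low, was high for Mrpl3 (102 CPM) and Mrps5 (61.4 CPM). Among libraries not in doubt, control female 8 was high for the members' summed CPM (3109) and Mrpl18 (48.3). Obesogenic female 4 was high for the difference between subunits (0.38 log2) and for Mrpl22 (24.5 CPM). Obesogenic male 1 was low for Mrpl41 (47.0 CPM) and obesogenic male 7 high for Mrps5 (60.3 CPM).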

How the results depend on the processing

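In edgeR, DESeq2 and limma voom, with other filters and scaling, with 2 surrogate variables, with the gene length trend removed and with each library left out, 0 members were called in any comparison. In females the median fold change of the members ranged from -0.138 to -0.084 when single libraries were left out, over both sexes from -0.157 to -0.062, and in obesogenic offspring (females minus males) from -0.080 to -0.027. In males it ranged from -0.193 to -0.021, and limma voom gave 0.0062. The male minus female diet effect ranged from -0.074 to 0.090. It was 0.12 with limma voom, 0.11 with 2 surrogate variables and 0.0059 without the 2 libraries whose titles carry 2 numbers. Without the 5 libraries in doubt it was 0.064, with the length trend also removed 0.054, with limma voom 0.093 and with DESeq2 0.059. Females minus males in control offspring ranged from -0.13 to 0.056. It was 0.065 with limma voom, 0.041 with 2 surrogate variables, 0.050 without the 5 libraries, 0.054 with the length trend also removed, 0.060 with limma voom and 0.050 with DESeq2. The highest values of the ranges in males, over both sexes, of the male minus female effect and in control offspring came without control male 6. The cause of these turns in direction was not tested. The difference between the subunits was 0.32 log2 as a mean over genes and 1.05 log2 as a ratio of summed CPM, which also counts the larger number of large subunit genes. No paired analysis was possible because the labels carry no replicate numbers that link the groups.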

Other observations

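Members differed in how closely they followed the rest across libraries. Without the 5 libraries in doubt, the correlation of a gene with the mean of the other members had a median of 0.556 over the 77 genes (n = 26 libraries). Mrpl13 (0.874), Mrpl27 (0.858) and Mrps15 (0.857) were closest to the rest. At the other end were 5 genes with values below 0: Mrps5 (-0.331), Mrps31 (-0.322), Mrpl35 (-0.197), Mrps2 (-0.0683) and Mrpl39 (-0.0484). The libraries share depth and composition, so these values are descriptions.

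Diet medians by promoter letters are given as descriptions, with no test of their differences. The 25 tested members with the ETS letters had a median of -0.14 in females and -0.19 in males, and the 43 without had -0.10 and -0.13. Without the 5 libraries these medians were -0.14 and -0.032 with the letters, and -0.084 and -0.034 without. The 8 members with the NRF1 letters had medians of -0.11 in females and -0.063 in males, against -0.11 and -0.18 in the 60 without. With the 5 libraries left out they were -0.12 and 0.018, against -0.098 and -0.038. The 13 members with the YY1 letters had medians of -0.085 in females and -0.21 in males, against -0.11 and -0.13 in the 55 without, and with the 5 libraries left out -0.068 and -0.053, against -0.11 and -0.023.

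In control male 6 the median difference from the rest of its group was 0.95 over the 38 members shorter than 2255 bases and 0.86 over the 39 others. In obesogenic female 3 these medians were -0.38 and -0.24, and its most distant member was Mrpl52 at -1.59.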
